A study of Homo sapiens with 25 samples.

Results

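The miR-106b~25 cluster is a group of 3 microRNA (miRNA) genes on human chromosome 7, MIR106B, MIR93 and MIR25, that lie together inside MCM7, a gene for a subunit of the helicase that opens DNA for replication. Its members were chosen by name and place in the genome, not by their values, although earlier results of these data were known. They are the unstarred mature rows of miR-106b, miR-93 and miR-25, 3 of the 1410 rows of the mature miRNA table, and the precursor rows hsa-mir-106b, hsa-mir-93 and hsa-mir-25, 3 of the 934 rows of the precursor table. All 6 rows passed the filter on low values, a mean of at least 10 reads per 1000000 miRNA reads (RPM), which 406 mature and 284 precursor rows passed. The cells were labelled A2780, an established human ovarian cancer cell line. They carried an empty lentivirus vector (labelled pLVX), a lentivirus that overexpresses pri-miR-450a or a lentivirus that overexpresses pri-miR-450b, with 3 small RNA libraries in each group. The labels call the 3 libraries biological replicates and do not say whether the cells were clones, pools or separate transductions, so a p-value here reflects the spread among the libraries, which may be technical. Each value is a miRNA's share of the miRNA reads in its library, and the read totals behind the shares are unknown.

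The 3 miRNAs lie in an intron of MCM7 and are transcribed with it, and the primary transcript is cut by Drosha and then Dicer into short duplexes, 1 arm of which is usually kept by Argonaute. An miRNA finds its targets mainly through its seed, the bases near its 5′ end. miR-106b and miR-93 carry the seed of the miR-17 family, known for repressing the cell cycle inhibitor p21, and miR-25 carries the seed of the miR-92 family and is known for repressing the proapoptotic protein BIM. The cluster is a paralog of the miR-17~92 cluster on chromosome 13 and of the miR-106a to miR-363 cluster on the X chromosome, and it is known to be active in dividing cells and raised by E2F1 and MYC.

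The mature sequences are shown because the cluster holds 2 seeds, and the seeds tell which miRNAs elsewhere share likely targets with each member. All 14 mature sequences looked up matched RefSeq (GRCh38.p14), and capitals mark the seed, bases 2 to 8. The deposited names are of an older kind, and unstarred miR-106b and miR-93 were taken as the 5p arms and unstarred miR-25 as the 3p arm. On the minus strand of chromosome 7, miR-106b lies at chr7:100094043-100094063, miR-93 at chr7:100093815-100093837 and miR-25 at chr7:100093571-100093592, all inside MCM7. The MIR106B and MIR25 hairpins together span 515 bases.
miR-106b: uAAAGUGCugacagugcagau
miR-93: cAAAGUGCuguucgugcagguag
miR-25: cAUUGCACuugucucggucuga
The relatives that share a seed with them elsewhere in the genome come next, first those with the miR-106b and miR-93 seed and then those with the miR-25 seed. miR-17, miR-20a and miR-92a are shown from their genes on chromosome 13, miR-106a, miR-20b and miR-363 from X, miR-92b from chromosome 1 and miR-32 from chromosome 9.
miR-17: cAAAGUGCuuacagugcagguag
miR-20a: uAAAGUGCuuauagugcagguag
miR-106a: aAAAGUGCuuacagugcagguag
miR-20b: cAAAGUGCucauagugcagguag
miR-92a: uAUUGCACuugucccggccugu
miR-92b: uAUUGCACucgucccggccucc
miR-363: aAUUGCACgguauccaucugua
miR-32: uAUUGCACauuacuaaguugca
miR-106b and miR-93 shared 76.2% of aligned bases with each other, while miR-106b shared 85.7% with miR-17 and miR-25 shared 81.8% with miR-92a. miR-106b and miR-25, from the same transcript, shared 31.6%. Among the relatives, miR-17 and miR-106a shared 95.7%, and how reads that match more than 1 row were assigned is not given in the sources used here, so the split between such close pairs is uncertain.

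The arms within a hairpin are shown for MIR106B and MIR25, with both mature arms in capitals, because the balance of the arms is described with the results. The MIR106B hairpin lies at chr7:100093993-100094074 and the MIR25 hairpin at chr7:100093560-100093643, both on the minus strand (GRCh38.p14, RefSeq). MIR93 is named only.
MIR106B: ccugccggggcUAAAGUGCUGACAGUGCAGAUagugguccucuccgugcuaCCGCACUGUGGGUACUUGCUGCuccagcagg
MIR25: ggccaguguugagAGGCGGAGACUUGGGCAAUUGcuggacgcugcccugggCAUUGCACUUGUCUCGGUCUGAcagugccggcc
In MIR106B the unstarred arm is the first in the hairpin, and in MIR25 it is the second.

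The miR-450a vector libraries stood apart from the other 6 before any member is considered. The arms of miR-199a, miR-199b and miR-214, miRNAs of mesenchymal cells, took up 17.6% to 25.4% of the miRNA reads in empty vector libraries and 20.5% to 25.05% in miR-450b vector libraries, against 0.0385% to 0.0530% in miR-450a vector libraries. A viral miRNA row, SV40 miR-S1-3p, stood at 47.8 to 73.4 RPM with the miR-450a vector and at no more than 0.501 RPM in the other libraries. The epithelial miR-200c stood at 235 to 333 RPM with the miR-450a vector, 50.2 to 79.3 with the empty vector and 77.0 to 148 with the miR-450b vector. Other markers overlapped between the miR-450a and empty vectors. These were the epithelial miR-141 (2.17 to 27.1 RPM over the 9 libraries), the blood cell miRNAs miR-142-3p (57.0 to 224), miR-142-5p (42.5 to 118) and miR-223 (0.433 to 1.78), and miR-122 of liver (4.44 to 18.7). Between the miR-450a and miR-450b vectors, miR-141 did not overlap (14.0 to 27.1 against 2.17 to 9.58 RPM). Nor did miR-122 (6.24 to 9.07 against 9.56 to 18.7 RPM). No miRNA that defines A2780 was among the markers, so the cell line itself was not checked. Each vector's own miRNA was high where the labels put it, as miR-450a stood at 8967 to 20745 RPM with its own vector and at no more than 504 elsewhere, and miR-450b at 547 to 1544 RPM with its own vector and at no more than 293 elsewhere. Every comparison with the miR-450a vector is therefore a difference between libraries that also differ in these markers, and their part in the results was not tested. In bulk RNA, fewer cells of a type and less RNA per cell cannot be told apart.

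The cluster was abundant in every library. Its 3 unstarred members together held 4.06%, 5.11% and 4.67% of miRNA reads in empty vector replicates 1, 2 and 3. They held 6.71%, 6.71% and 5.73% with the miR-450a vector and 4.47%, 4.99% and 5.18% with the miR-450b vector. The miR-450a vector libraries lay above the other 6, which overlapped among themselves. The totals include the miR-199a, miR-199b and miR-214 arms, 17.6% to 25.4% of reads in those 6 and at most 0.0530% with the miR-450a vector. The sum was not recomputed without these arms, and its separation holds only for shares as deposited. Leaving out at least 17.6% of reads would lift empty vector replicate 2 (5.11%) above miR-450a vector replicate 3 (5.73%). With them removed, the limma changes against the empty vector were 0.81 for miR-25, 0.017 for miR-93 and -0.45 for miR-106b (log2). The means were 4.61 ± 0.524%, 6.39 ± 0.564% and 4.88 ± 0.370% (SD, n = 3), and no test was made on this sum. The 6 unstarred rows of the miR-17~92 cluster held more in each group, 19.2 ± 1.74%, 35.8 ± 3.52% and 18.7 ± 1.14%. The 4 rows particular to the miR-106a to miR-363 cluster held less, 0.712 ± 0.244%, 0.190 ± 0.0670% and 0.216 ± 0.0664% (SD, n = 3). The rows of miR-19b and miR-92a, which have copies in both clusters, are counted in the miR-17~92 sum only, so the sums are not of like sets.

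miR-106b, the first member in the transcript, stood at 19158, 17596 and 17530 RPM in the 3 empty vector libraries. It stood at 17216, 26735 and 10018 RPM with the miR-450a vector and at 8480, 12262 and 18438 with the miR-450b vector. The values of both vector groups fell on either side of the empty vector values or among them, so the groups overlapped in all comparisons. The means were 18094 ± 921, 17990 ± 8385 and 13060.0 ± 5027 RPM (SD, n = 3).

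miR-93, the middle member, stood at 12968, 21438 and 15353 RPM with the empty vector. It stood at 21053, 20965 and 20108 RPM with the miR-450a vector and at 17557, 21445 and 19211 with the miR-450b vector. Empty vector replicate 2 lay above every miR-450a vector library, so these groups overlapped as well. The means were 16586 ± 4368, 20709 ± 522 and 19404 ± 1951 RPM (SD, n = 3).

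miR-25, the last member, stood at 8495, 12020 and 13808 RPM with the empty vector. It stood at 28876, 19373 and 27207 RPM with the miR-450a vector and at 18637, 16171 and 14172 with the miR-450b vector. All 3 groups were separate, with the empty vector lowest and the miR-450a vector highest, although the lowest miR-450b vector library was close to the highest empty vector library. The means were 11441 ± 2703, 25152 ± 5074 and 16327 ± 2237 RPM (SD, n = 3). Among all rows of the mature table, miR-25 ranked 29, 22 and 20 by abundance in the empty vector libraries, 6, 14 and 6 in those of the miR-450a vector and 14, 17 and 20 in those of the miR-450b vector.

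**Figure D1:**
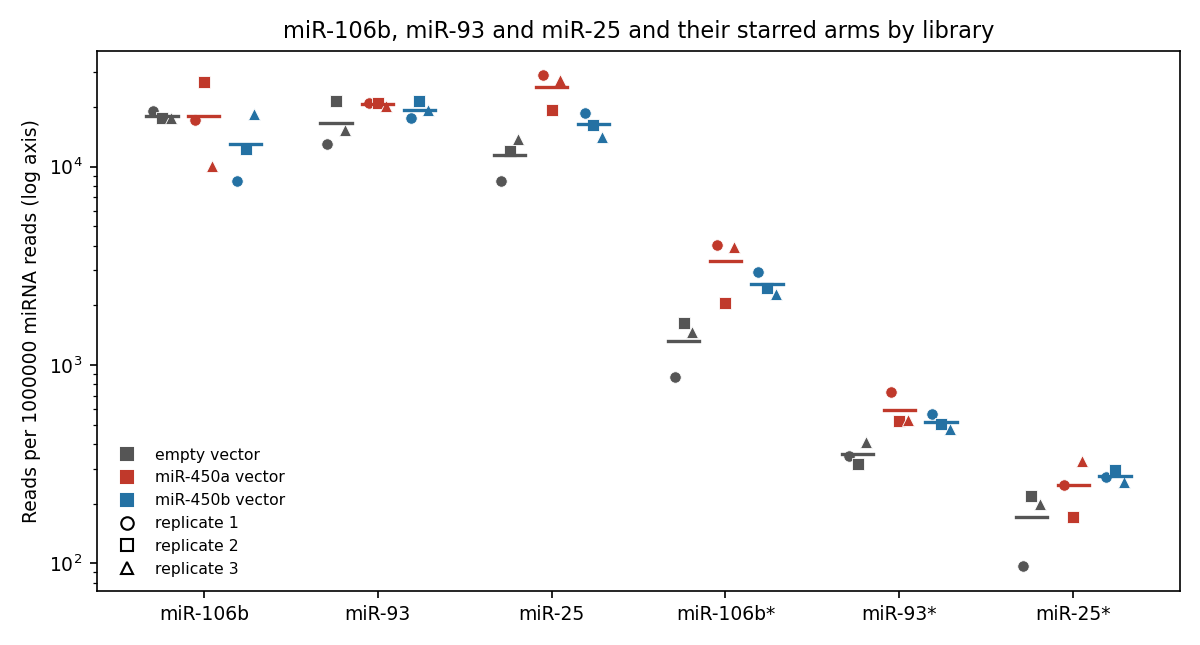
Level of the 3 cluster members and their starred arms in each of the 9 libraries, in reads per 1000000 miRNA reads on a log axis. Colours stand for the vector, symbols for the replicate number and horizontal bars for the group mean (n = 3). For miR-25 the 3 miR-450a vector libraries (19373 to 28876) sit above the 3 empty vector libraries (8495 to 13808), while the groups overlap for miR-106b and miR-93.

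The order of the members differed between groups. With the empty vector the order of means was miR-106b, miR-93 and miR-25, from high to low, and the difference between miR-106b and miR-93 was within their spread. With the miR-450a vector miR-25 had the highest mean, and with the miR-450b vector miR-93 did. miR-25 made up 20.9%, 23.5% and 29.6% of the cluster's reads in the empty vector libraries, 43.0%, 28.9% and 47.5% in those of the miR-450a vector and 41.7%, 32.4% and 27.3% in those of the miR-450b vector. Replicate 2 of the miR-450a vector lay inside the range of the empty vector, so the groups overlapped in this share. Levels of different miRNAs are shares of reads, and the efficiency with which each was captured in the libraries was not measured.

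**Figure D2:**
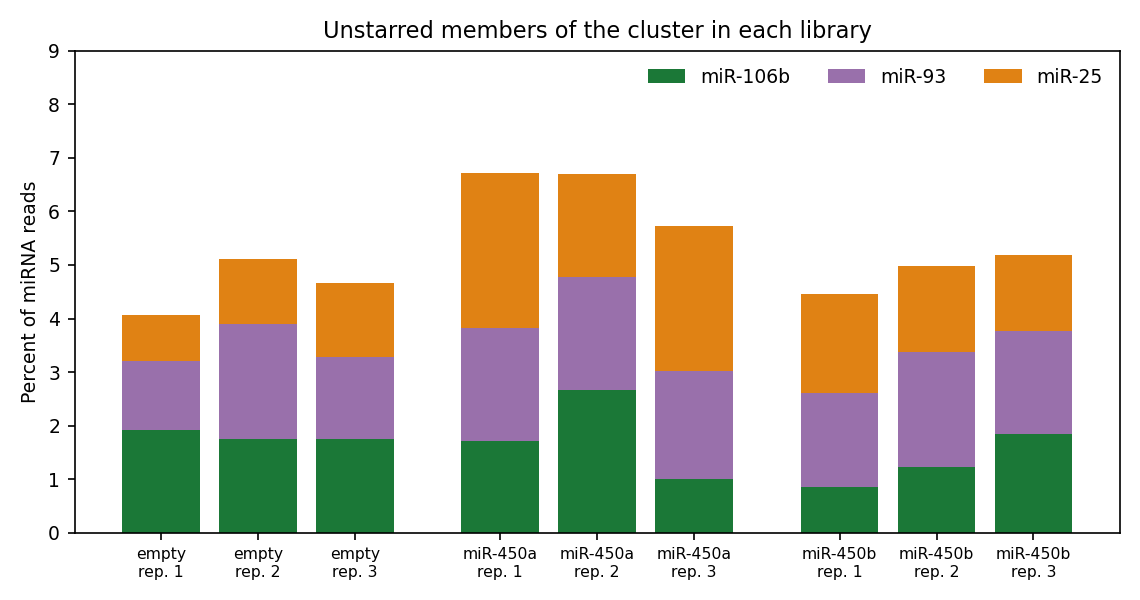
Percent of all miRNA reads held by miR-106b, miR-93 and miR-25, stacked, in each of the 9 libraries. Bars of the miR-450a vector reach 5.73% to 6.71%, against 4.06% to 5.18% in the other libraries, and the miR-25 segment varies among replicates of the same vector. The totals include the miR-199a, miR-199b and miR-214 arms, which were nearly absent with the miR-450a vector. Leaving these arms out of the totals would remove the separation of the miR-450a vector bars.

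Cells with the miR-450a vector were compared with empty vector cells first, to ask which miRNAs other than miR-450a differed. Of the 3 members, 1 rose. In a limma fit of log2(RPM + 10), where a fold is understated for low rows, miR-25 rose by 1.14 ± 0.27 (log2, SE, adjusted p = 0.00426), a 2.21-fold change. miR-93 differed by 0.35 ± 0.25 (adjusted p = 0.253) and miR-106b by -0.12 ± 0.38 (adjusted p = 0.808). P-values were adjusted over all 406 rows, of which 225 (55.4%) passed 0.05 in either direction and 150 (36.9%) were higher. The groups did not overlap for miR-25 and overlapped for the other 2 members, while 57.9% of all rows did not overlap. A count of 1 in 3 is thus no more than the share of rows that passed in this comparison.

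The call for miR-25 rests on how the libraries are scaled. The median change of all 406 rows was 0.44 on the log2 scale, and with median-of-ratios scaling, which brings that median to 0.052, miR-25 was higher by 0.70 ± 0.29 (limma adjusted p = 0.0667) and no longer passed. miR-93 then changed sign, to -0.094 (adjusted p = 0.786), and miR-106b stood at -0.56 (adjusted p = 0.230). With the miR-199a, miR-199b and miR-214 rows removed from the totals, miR-25 kept its call (0.81, adjusted p = 0.0364). Over the 19 alternatives run, miR-25 passed in 18, with adjusted p from 0.00263 to 0.0667.

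In the comparison of the miR-450b vector with the empty vector, none of the 3 members passed in the limma fit, while 59 of 406 rows (14.5%) did. miR-25 differed by 0.53 ± 0.27 (log2, SE, adjusted p = 0.242), miR-93 by 0.25 ± 0.25 (adjusted p = 0.528) and miR-106b by -0.54 ± 0.38 (adjusted p = 0.384). At an unadjusted threshold of 0.05 the count was also 0 of 3. Adjustment never lowers a p-value, so at least 14.5% of all rows were under that threshold, and the exact share was not counted. The miR-25 values did not overlap, which 31.8% of all rows shared. Both comparisons use the same 3 empty vector libraries, so their changes are not independent.

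The vectors against each other gave no call among the 3 members in the limma fit, although 245 of 406 rows (60.3%) passed. Of the members 1, miR-25, had an unadjusted p under 0.05, as had at least 60.3% of all rows. miR-25 was higher with the miR-450a vector by 0.61 ± 0.27 (log2, SE, limma adjusted p = 0.0730), with no overlap of the groups, as in 69% of all rows. It passed without empty vector replicate 1 (0.61, adjusted p = 0.0424) and without miR-450a vector replicate 2 (0.79, adjusted p = 0.0365). The difference was 0.0033 with median-of-ratios scaling (adjusted p = 0.998). miR-106b differed by 0.42 ± 0.38 (adjusted p = 0.350) and miR-93 by 0.10 ± 0.25 (adjusted p = 0.751), and both turned negative with median-of-ratios scaling.

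The precursor rows add no separate evidence, because each equalled the sum of the unstarred and starred arm of its miRNA in 9 of 9 libraries, to a relative tolerance of 1e-06. In that table hsa-mir-25 rose with the miR-450a vector by 1.14 ± 0.27 (log2, SE, limma adjusted p = 0.00298), where 62.7% of the 284 rows passed, and it did not pass with median-of-ratios scaling (0.55, adjusted p = 0.102). hsa-mir-93 differed by 0.36 (adjusted p = 0.211) and hsa-mir-106b by 0.073 (adjusted p = 0.843). None of the 3 passed with the miR-450b vector, where 17.3% of rows did, or between the vectors, where 66.9% did. At an unadjusted p under 0.05 these counts were 0 and 1 (hsa-mir-25), where at least 17.3% and 66.9% of all rows were under it. With median-of-ratios scaling hsa-mir-93 was lower with the miR-450a vector than with the miR-450b vector (-0.70, limma adjusted p = 0.0299).

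A ratio of members inside a library does not depend on how the libraries are scaled. The log2 ratio of miR-25 to miR-93 was -0.61, -0.83 and -0.15 in the empty vector libraries, 0.46, -0.11 and 0.44 in those of the miR-450a vector and 0.086, -0.41 and -0.44 in those of the miR-450b vector. All 3 miR-450a vector values lay above all 3 empty vector values, and the nearest pair was -0.11 against -0.15. The difference of means was 0.79 (two-sided exact permutation p = 0.1, the smallest that 3 against 3 allows, 0.4 after adjustment over 18 ratio and arm tests). For miR-25 to miR-106b it was 1.26 for the miR-450a vector and 1.07 for the miR-450b vector (exact permutation p = 0.2 for both, adjusted p = 0.4), with overlapping groups. miR-106b to miR-93 differed by -0.47 and -0.80 (exact permutation p = 0.4 and 0.2). This test could not have passed 0.05 with 3 libraries against 3, whatever the size of the difference.

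The ratio of miR-25 to miR-106b varied widely among replicates of a vector. It was 0.443, 0.683 and 0.788 in the empty vector libraries, 1.68, 0.725 and 2.72 in those of the miR-450a vector and 2.20, 1.32 and 0.769 in those of the miR-450b vector. The ratio of miR-92a to miR-17, the corresponding pair at the ends of the miR-17~92 cluster, was 1.03, 2.68 and 2.53 in the empty vector libraries. It was 5.18, 1.85 and 4.06 with the miR-450a vector and 5.63, 3.06 and 3.29 with the miR-450b vector. The lowest library was the same for both ratios with the empty vector (replicate 1) and with the miR-450a vector (replicate 2), but not with the miR-450b vector (replicates 3 and 2). The highest library was the same with the miR-450b vector (replicate 1) and differed with the empty vector (replicates 3 and 2) and the miR-450a vector (replicates 3 and 1). On the log2 scale the SD within a group was 0.072, 0.71 and 0.56 for miR-106b with the empty, miR-450a and miR-450b vectors, 0.37, 0.037 and 0.14 for miR-93, and 0.36, 0.31 and 0.20 for miR-25.

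**Figure D3:**
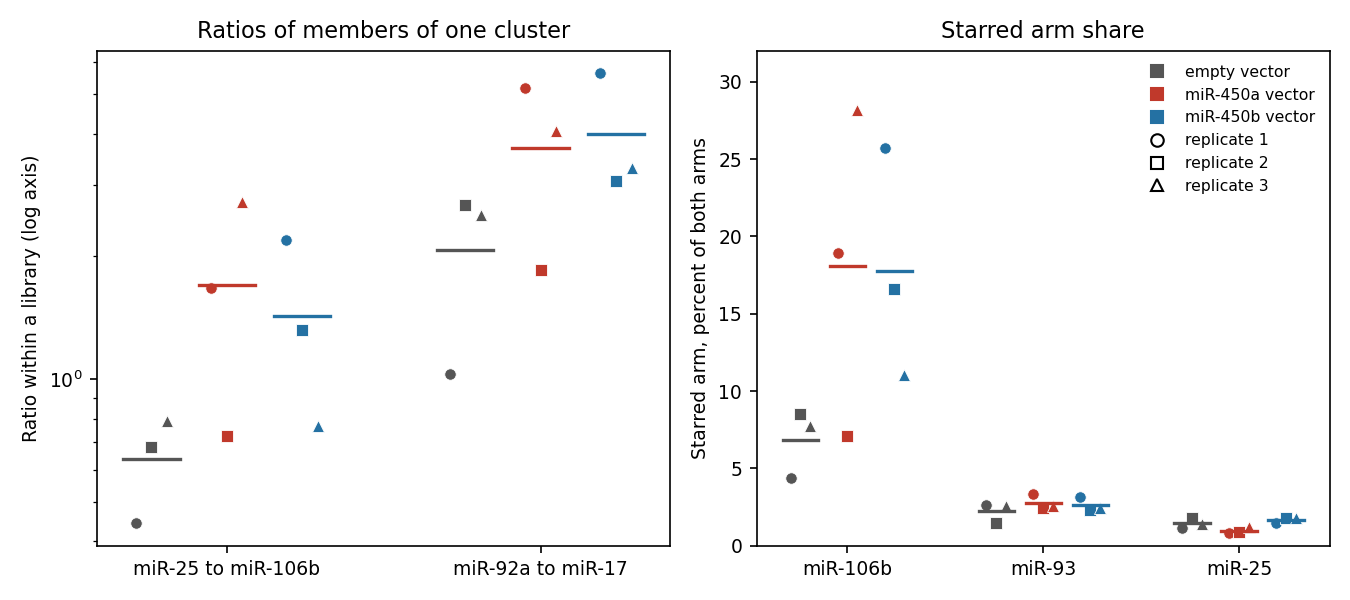
Left, the ratio of miR-25 to miR-106b and of miR-92a to miR-17 inside each library, on a log axis. Right, the starred arm of each hairpin as a percent of both arms. Symbols are libraries and horizontal bars are group means (n = 3). The miR-25 to miR-106b ratio runs from 0.443 to 2.72 over the 9 libraries, and the starred share of miR-106b from 4.35% to 28.1%.

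The starred arms, the lesser product of each hairpin, were described beside the members. The star of miR-106b (miR-106b*, the 3p arm) stood at 872, 1632 and 1473 RPM in the empty vector libraries, 4025, 2042 and 3925 in those of the miR-450a vector and 2931, 2436 and 2289 in those of the miR-450b vector. Both vector groups lay wholly above the empty vector, in comparisons where 57.9% (miR-450a vector) and 31.8% (miR-450b vector) of all rows did not overlap. With the miR-450a vector miR-106b* rose by 1.31 ± 0.35 (log2, SE, limma adjusted p = 0.00791), and with the miR-450b vector the difference was 0.98 ± 0.35 (adjusted p = 0.0990). With median-of-ratios scaling neither passed, at 0.86 (adjusted p = 0.0667) and 1.14 (adjusted p = 0.0570).

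miR-93* stood at 347, 316 and 409 RPM in the empty vector libraries, 727, 524 and 528 in those of the miR-450a vector and 568, 507 and 474 in those of the miR-450b vector. It was also separate from the empty vector in both vector groups, as were 57.9% and 31.8% of all rows. It rose by 0.71 ± 0.26 with the miR-450a vector (limma adjusted p = 0.0367), a call kept in 10 of 19 alternatives and lost with median-of-ratios scaling (0.27, adjusted p = 0.438) and on leaving out any 1 of 6 libraries (empty vector replicates 1 and 2, miR-450a vector replicates 1 and 3 and miR-450b vector replicates 1 and 2, adjusted p from 0.0542 to 0.141). miR-25* ranged from 96.9 to 218 RPM with the empty vector, from 171 to 327 with the miR-450a vector and from 258 to 297 with the miR-450b vector. It passed in neither comparison with the empty vector. Thus 2 of 3 starred arms were called with the miR-450a vector, beside 36.9% of all rows called higher in that comparison as deposited. With median-of-ratios scaling 0 of 3 were called, and the share of all rows called under that scaling is not given here. With the miR-450b vector 0 of 3 were called in the limma fit, beside 14.5% of all rows. Of these arms 1, miR-106b*, had an unadjusted p under 0.05, as had at least 14.5% of all rows.

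The balance of the arms varied in all 3 hairpins. The starred arm ran from 1.45% to 3.34% of miR-93 reads and from 0.850% to 1.80% of miR-25 reads over the 9 libraries, and from 4.35% to 28.1% of miR-106b reads. The unstarred arm made up 97.8 ± 0.664%, 97.2 ± 0.488% and 97.4 ± 0.448% of miR-93 reads and 98.6 ± 0.329%, 99.0 ± 0.189% and 98.3 ± 0.204% of miR-25 reads with the empty, miR-450a and miR-450b vectors (SD, n = 3). For miR-106b the starred arm made up 4.35%, 8.49% and 7.75% of both arms in the empty vector libraries, 18.9%, 7.10% and 28.1% in those of the miR-450a vector and 25.7%, 16.6% and 11.0% in those of the miR-450b vector. The miR-450b vector libraries lay above the empty vector libraries, while replicate 2 of the miR-450a vector lay among them. The unstarred share was lower by 10.9 percentage points with the miR-450b vector (exact permutation p = 0.1, adjusted p = 0.4) and by 11.2 with the miR-450a vector (exact permutation p = 0.3). For miR-25 the unstarred share was higher with the miR-450a vector than with the miR-450b vector by 0.707 percentage points, without overlap (exact permutation p = 0.1, adjusted p = 0.4). The starred share of miR-106b was highest in the miR-450a and miR-450b vector libraries where unstarred miR-106b was lowest, which is partly built in, since both enter the share.

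The other miRNAs with these seeds were set beside the members. Of the 6 miRNAs with the miR-17 seed, miR-106b and miR-93 included, 0 were higher and 1 was lower in miR-450a vector libraries than in empty vector libraries, where 18.5% of all rows were lower in the limma fit. That was miR-20b, of the miR-106a to miR-363 cluster, which stood at 1396, 1306 and 1296 RPM and at 131, 209 and 136 in these groups, a change of -3.02 ± 0.30 (log2, SE, adjusted p = 5.52e-06). miR-17 differed by 0.61 (adjusted p = 0.128), miR-20a by 0.038 (adjusted p = 0.935) and miR-106a by -0.72 (adjusted p = 0.115). With median-of-ratios scaling miR-106a was lower as well, at -1.16 (adjusted p = 0.0175). The family's median change was -0.040 against 0.44 over all rows. With the miR-450b vector 2 of 6 were lower, where 10.1% of all rows were, miR-106a at -1.24 (adjusted p = 0.0420) and miR-20b at -1.59 (adjusted p = 0.00338), and the median was -0.66 against -0.16 over all rows. With median-of-ratios scaling 1 of these, miR-20b, still passed, and the share of all rows called under that scaling is not given here.

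Of the 6 miRNAs with the miR-25 seed, 5 passed the filter and miR-367 did not. With the miR-450a vector 2 rose, miR-25 and miR-92a, and 1 fell, miR-363, beside 36.9% of all rows higher and 18.5% lower, so these counts out of 5 are near the background. miR-92a, made by the miR-17~92 and miR-106a to miR-363 clusters and held in 1 row, stood at 54231, 96907 and 78280 RPM with the empty vector and at 225501, 161846 and 222620 with the miR-450a vector. The groups were separate, and miR-92a rose by 1.43 ± 0.28 (log2, SE, limma adjusted p = 0.00111), a call kept with median-of-ratios scaling (0.99, adjusted p = 0.0172). miR-363 stood at 2597, 5180 and 928 RPM with the empty vector and at 249, 257 and 159 with the miR-450a vector, and changed by -3.36 ± 0.58 (adjusted p = 4.53e-04). miR-92b differed by -0.66 (adjusted p = 0.0857) and miR-32 by 0.21 (adjusted p = 0.833). With median-of-ratios scaling the counts were 1 higher (miR-92a) and 2 lower (miR-363 and miR-92b, the latter at -1.10, adjusted p = 0.0127). The family's median change was 0.21 against 0.44 over all rows, and -0.22 against 0.052 with that scaling. The share of all rows called under that scaling is not given here.

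With the miR-450b vector miR-363 was lower, at -2.01 (limma adjusted p = 0.0406), and the other 4 did not pass, miR-92a at 0.60 (adjusted p = 0.197). Of all rows, 10.1% were lower in that comparison. The miR-363 groups overlapped, as miR-450b vector replicate 2 stood at 1060 RPM and empty vector replicate 3 at 928. miR-363 did not pass there with median-of-ratios scaling (adjusted p = 0.0566). Beside the more abundant miR-92a, miR-25 made up a small part of its seed family, 12.2 ± 2.10%, 10.8 ± 0.351% and 12.1 ± 1.04% of the family's reads with the empty, miR-450a and miR-450b vectors (SD, n = 3). The log2 ratio of miR-25 to miR-92a was -2.67, -3.01 and -2.50 in the empty vector libraries, -2.97, -3.06 and -3.03 in those of the miR-450a vector and -2.93, -2.82 and -2.65 in those of the miR-450b vector. These ranges overlapped between the empty vector and each of the other vectors. Between the miR-450a and miR-450b vectors they did not, and the nearest pair was -2.97 against -2.93.

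**Figure D4:**
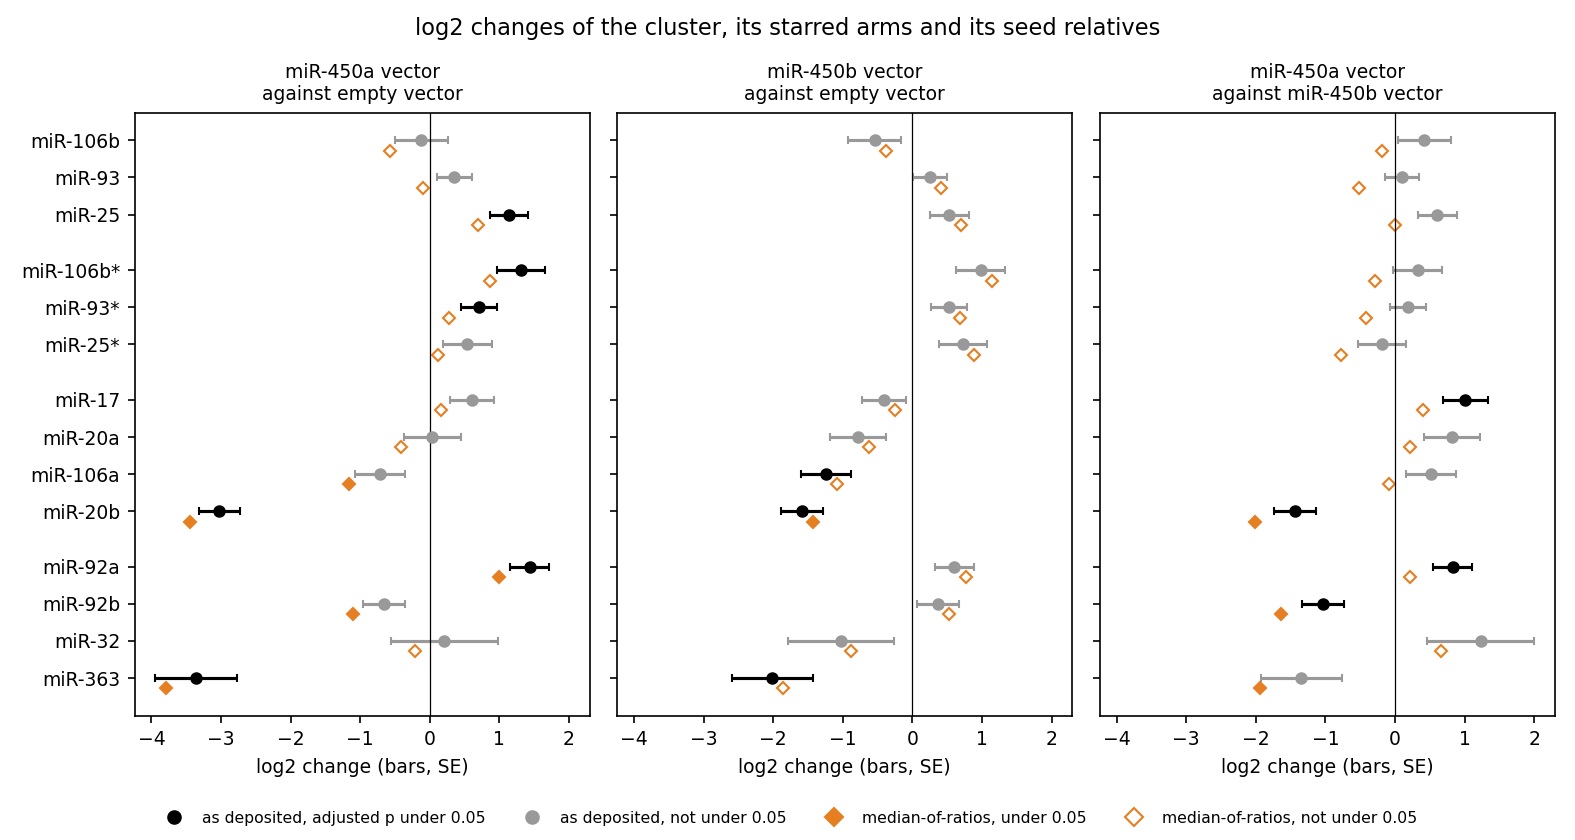
Log2 changes of the members, their starred arms and the miRNAs that share their seeds, in the 3 comparisons. Circles with SE bars are shares as deposited, black where the limma adjusted p was under 0.05 and grey otherwise, and orange diamonds are median-of-ratios scaling, filled where it was under 0.05. For the miR-450a vector relative to the empty vector miR-25 stands at 1.14, and at 0.70 with the other scaling, while miR-20b and miR-363 lie at -3.02 and -3.36.

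The paralog clusters were counted in the same way. Of the 6 rows of the miR-17~92 cluster, 1 was higher with the miR-450a vector (miR-92a), beside 36.9% of all rows. With the miR-450b vector 0 passed in the limma fit, beside 14.5% of all rows. An unadjusted p under 0.05 was found for 2, miR-19a and miR-19b, and for at least 14.5% of all rows. Between the vectors 4 were higher in the miR-450a vector libraries (miR-17, miR-18a, miR-19a and miR-92a, changes of 0.83 to 1.76), where 41.9% of all rows were. With median-of-ratios scaling that last count was 0. Of the 6 rows of the miR-106a to miR-363 cluster, 3 fell with the miR-450a vector (miR-18b, at -2.84, as well as miR-20b and miR-363), beside 18.5% of all rows, and miR-92a, shared with the miR-17~92 cluster, was higher. With the miR-450b vector miR-18b fell too (-2.26, adjusted p = 0.00790), which with miR-106a, miR-20b and miR-363 made 4 rows lower, beside 10.1% of all rows, and 2 with median-of-ratios scaling. No difference between clusters was tested. The counts with median-of-ratios scaling have no share of all rows under that scaling beside them. miR-15b and miR-16, which lie in SMC4, another gene used by dividing cells, differed by -0.30 and -0.31 with the miR-450a vector (adjusted p = 0.490 and 0.475) and by -0.23 and -0.47 with the miR-450b vector (adjusted p = 0.693 and 0.394). miR-16 also has a copy outside SMC4.

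The miRNAs most like the summed cluster were found among 268 human unstarred rows outside the lists named above, by the root mean square difference of log2(RPM + 10) over the 9 libraries, each row centred on its own mean. The 5 nearest were miR-103 (0.168), miR-1304-5p (0.175), miR-128 (0.181), miR-3065-3p (0.193) and miR-210, an miRNA induced by hypoxia (0.208), where the median row differed by 0.715. The summed cluster itself varied by 0.234 around its own mean, against 0.679 for the median tested row, so these are rows that varied little. On the same measure miR-93 differed from the sum by 0.170, miR-25 by 0.381 and miR-106b by 0.468. All 5 rows from elsewhere were closer to the sum of the cluster than were miR-25 and miR-106b, which enter it. miR-103 stood at 26589, 37844 and 28454 RPM with the empty, miR-450a and miR-450b vectors, and miR-1304-5p at 45.4, 69.3 and 39.7 (means, n = 3).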

How the data were processed

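Small RNA libraries of 9 A2780 samples were analysed. Per the labels' protocols, RNA was extracted with TRIzol and sequenced as single reads on a HiSeq machine. The authors deposited fractions, in which each mature miRNA arm or precursor is given relative to the library's miRNA reads, per the file headers, and each column summed to 1. Read totals did not come with the fractions, so the depth is unknown and no interval, detection limit or count test could be had. The aligner and annotation were not given in the sources used here. TopHat and Cuffdiff are named for the series in the submitters' processing notes, with no role. A fraction can rise because others fall.

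Fractions were multiplied by 1000000 (RPM) and analysed as log2(RPM + 10) for rows averaging 10 RPM or more, in limma 3.58.1 (R 4.3.3) with an intensity trend and all 9 libraries, each comparison adjusted by Benjamini-Hochberg over all rows of its table at 0.05. The limma steps were tested on simulated data. These were drawn without holding each library to a fixed total, so they do not bear on the choice of scaling. Ratios and arm shares were compared by two-sided exact permutation tests. Sequences came from RefSeq tables (GRCh38.p14), and identity is ungapped at shifts of up to 2 bases. The members and lists were chosen with earlier results of these data known. The miRNAs named were the members, their starred arms, every row of 5 lists (2 seed families, 2 paralog clusters and the SMC4 pair) and the 5 most alike rows. Alternatives were other pseudocounts (1 and 100 RPM), filters, scalings and sample sets, limma without the trend, a replicate block and leaving out each library. The 12 mRNA samples and 4 PAR-CLIP samples were left out. Python 3.11.15 and matplotlib 3.10.9 made summaries and figures.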

Additional observations from a re-analysis of the deposited data

How the results depend on the processing

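With median-of-ratios scaling the log2 change of miR-25 with the miR-450a vector, relative to the empty vector, was 0.70, that of miR-93 was -0.094, those of miR-106b* and miR-93* were 0.86 and 0.27, and those of hsa-mir-106b and hsa-mir-93 were -0.52 and -0.23. Between the miR-450a and miR-450b vectors it gave -0.19 for miR-106b, -0.51 for miR-93, -0.28 for miR-106b*, -0.41 for miR-93*, -0.37 for hsa-mir-106b, -0.70 for hsa-mir-93 (limma adjusted p = 0.0299) and -0.20 for hsa-mir-25. Without the miR-199a, miR-199b and miR-214 rows the same comparison gave -0.26 for miR-93 and for hsa-mir-93, -0.035 for miR-106b* and -0.17 for miR-93*, while with the miR-450a vector relative to the empty vector hsa-mir-106b stood at -0.26 and miR-93* at 0.38. With the compared groups fitted alone, miR-93* stood at 0.71 there (limma adjusted p = 0.0890). Leaving out 1 library at a time, miR-106b with the miR-450a vector ranged from -0.46 to 0.25 (positive without miR-450a vector replicate 3) and hsa-mir-106b from -0.17 to 0.35, and miR-93* from 0.55 to 0.80. With the miR-450b vector miR-106b* ranged from 0.71 to 1.16, and it passed without miR-450a vector replicate 2 (limma adjusted p = 0.0411). Between the vectors miR-25 ranged from 0.50 to 0.79 and miR-25* from -0.40 to 0.047. The cause was not tested.

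With no filter 341 mature rows passed with the miR-450a vector relative to the empty vector. With a mean of at least 100 RPM, where fewer rows are tested, 137 passed there, 38 with the miR-450b vector and 140 between the vectors, and 125 precursor rows between the vectors. For the 3 members and the counts of rows, 272 other values kept their direction and their side of the threshold, or for counts stayed within 1.5 times.

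The replicate number was also fitted as a block. Deviations of libraries with the same number correlated from -0.51 to 0.64 over the 406 rows. Libraries with different numbers were not correlated, so this range cannot tell whether the numbers pair the samples. With the replicate block miR-25 with the miR-450a vector was 1.14 (limma adjusted p = 0.0120), 230 mature rows passed in that comparison, 58 with the miR-450b vector and 251 between the vectors, and no call on the members changed. The unknown depth and 3 libraries a group limit what could be detected, and the list counts with other scalings were chosen after seeing the data.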
